A study of Mus musculus with 4 samples.

Results

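Kinesins are motor proteins that use ATP to move along microtubules or to take their ends apart. The family was followed here in 2 cell lines, 8534 and 8542, each established from a single mammary tumor of a female MMTV-tTA/TOP-ICN1 mouse on a mixed FVB/N;B6 background. In this model the MMTV promoter drives the tetracycline transactivator, which in turn drives a human ICN1 transgene, the constitutively active intracellular domain of NOTCH1. All 4 samples carry both transgenes. Cells left untreated express ICN1, and 2 µg/ml doxycycline for 24 hours suppresses it. The comparison asks how the RNA of the motors differs between these conditions. No cells without the ICN1 transgene were arrayed with doxycycline. An effect of the lower ICN1 and one of doxycycline itself therefore cannot be told apart. Total RNA of each line and condition was hybridized to 1 Affymetrix mouse genome array. Members were genes whose symbol has the form Kif or Kifc followed by a number, with letters where the symbol has them. Of 18193 genes with a probe set that names a single gene, 40 met this rule, and they were covered by 103 probe sets. Where a gene had several, the one with the highest log2 signal on average over the 4 arrays stands for it. They were divided by known role into 13 mitotic kinesins, 18 transport kinesins and 9 others. A motor outside this naming, Cenpe, was read as a partner.

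Mitotic kinesins build and elongate the spindle, move and align chromosomes, trim microtubule ends at kinetochores and organize the midzone where the cell is cut apart. Most are made only as cells approach division, and their RNA is low in resting cells. Transport kinesins carry vesicles, mitochondria, membrane proteins and RNA granules outward along microtubules in cells whether or not they divide, often through light chains or adaptor proteins that hold the cargo. Dynein with its activator dynactin carries cargo the other way, and tubulins form the track for both.

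Signals are MAS5 values in arbitrary units and are compared between arrays for 1 probe set only, since levels of different probe sets are not comparable. A change is the log2 signal with doxycycline minus the untreated log2 signal of the same line, and a mean change is given ± SD over the 2 lines. A gene was called where limma, with terms for line and treatment, gave an adjusted p under 0.05 over all 33778 probe sets tested. Genes whose mean log2 signal lay under the 25th percentile (7.68 units) were not tested, and signals under the 20th percentile of all values (5.52 units) were treated as near background. The arrays had similar median signals (29.1 to 30.5 units). Reduced NOTCH1 signaling showed in its direct target Nrarp, which fell from 4730 to 219 units in 8534 and from 4511 to 143 in 8542. Hey1 fell from 1138 to 96.4 and from 762 to 101. Both lines had high signals for the luminal markers Krt8 (3467 to 7165 units) and Epcam (1663 to 3003). Of the 7 luminal markers read, 4 were called higher with doxycycline and 1, Krt19, lower, beside 4.76% and 6.95% of all genes tested. Of 5 basal markers Krt14 and Acta2 were high in 8534 (869 to 1379 and 3012 to 6588 units) and lower in 8542 (10.0 to 15.9 and 148 to 181). Krt5, Trp63 and Myh11 were between 2.34 and 52.9 units in both lines. Of 6 fibroblast markers Col1a1, Col1a2, Col3a1 and Pdgfrb were likewise higher in 8534 (151 to 406 units) than in 8542 (6.96 to 71.3). Dcn and Pdgfra did not share this. Untreated and treated, Dcn was at 20.5 and 18.5 units in 8534 and at 4.02 and 20.7 in 8542. Pdgfra was at 21.0 and 3.63 units in 8534 and at 23.6 and 9.74 in 8542. Signals were low for the leukocyte marker Ptprc (6.08 to 7.20 units) and the neuronal marker Snap25 (1.81 to 7.27). Other markers of these lists were not low, such as Cd14 (188 to 432 units, called higher, adjusted p = 0.0353) and Map2 (278 to 515). Of 5 endothelium markers 1, Tek, was called lower (adjusted p = 0.0303), and of 5 multiciliated cell markers 0 were called by limma.

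With doxycycline, 9 of the 10 mitotic kinesins that could be tested were called lower. Of the 17 transport kinesins and 8 other kinesins tested, 0 were called. The 9 were Kif4, Kif11, Kif18a, Kif18b, Kif20a, Kif20b, Kif22, Kif23 and Kifc1, with mean changes of -3.44 to -1.55 and adjusted p values of 0.00142 to 0.0117. Each was also more than 2-fold lower in both lines. Among all genes tested 6.95% were called lower and 4.76% higher, and 0 kinesins were called higher by limma (1, Kif1c, at an unadjusted p under 0.05). More than 2-fold lower in both lines were 4.42% of all 18193 genes, and more than 2-fold higher 3.09%. Of the 40 kinesins 35 passed the expression filter, and Kif2b, Kif14, Kif15, Kif26a and Kif28 did not. The calls rest on 1 array per line and condition and on both the term for line and the intensity trend in the model. With 2 lines the smallest p an exact test of the treatment allows is 0.5. Without the line term or without the trend, 0 mitotic kinesins were called by limma. The lowest adjusted p was 0.0776 without the line term and 0.223 without the trend, although 9 still had an unadjusted p under 0.05.

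**Figure D1:**
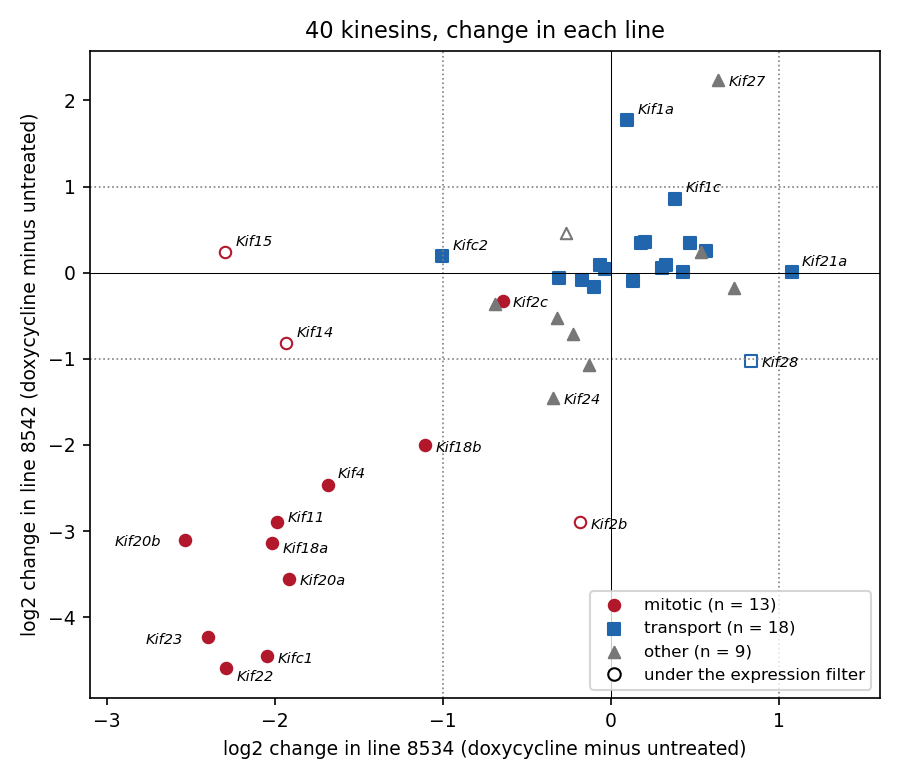
Log2 change (doxycycline minus untreated) of 40 kinesins in line 8534 (x axis) and line 8542 (y axis), 1 point per gene, with dotted lines at a 2-fold change and open symbols for genes under the expression filter. The 9 mitotic kinesins called lower lie at the lower left, past 2-fold in both lines, and the 17 transport kinesins that were tested lie around 0, with Kif1a, Kif21a and Kifc2 past 2-fold in 1 line only.

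Among the motors that shape the spindle, Kif11, the kinesin-5 that slides antiparallel microtubules apart to separate the poles, gave signals of 179 units untreated and 45.1 with doxycycline in 8534, and of 185 and 24.9 in 8542. It fell 3.97-fold and 7.44-fold (mean log2 change -2.44 ± 0.64, n = 2 lines, adjusted p = 0.00222). Both treated arrays lay well below both untreated arrays, which were nearly equal between the lines. Kifc1, the minus-end-directed kinesin-14 that gathers microtubule ends at the poles, gave 163 and 39.4 units in 8534, and 81.4 and 3.71 in 8542 (mean log2 change -3.25 ± 1.70, adjusted p = 0.0108). The groups did not overlap, and the treated value of 8542 lay under the background level, so that its fold of 21.9 is 14.7 when that value is raised to the level. Its probe set is of the Affymetrix type that matches transcripts of more than 1 gene, so that signal from a similar gene may be included. Kif15, a kinesin-12 that can help keep poles apart, was close to background and not tested, at 13.4 and 2.73 units in 8534 and at 7.52 and 8.90 in 8542. It was the only mitotic kinesin of the 13 without a lower treated value in both lines.

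The chromosome-bound motors, which act on chromosome arms, both fell. Kif22 had the largest mean change of the kinesins, with 657 and 134 units in 8534 and 910 and 37.7 in 8542, a fall of 4.89-fold and 24.1-fold (mean log2 change -3.44 ± 1.63, adjusted p = 0.00476). The higher untreated array and the lower treated array both belonged to 8542. Kif4, which also acts at the central spindle, gave 228 and 70.9 units in 8534 and 249.9 and 45.4 in 8542 (3.22-fold and 5.50-fold lower, mean log2 change -2.07 ± 0.55, adjusted p = 0.00238). Its untreated arrays were close together and its treated arrays lay below both.

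At microtubule plus ends and kinetochores, Kif18a, which damps the swinging of chromosomes at the spindle equator, gave 54.6 and 13.5 units in 8534 and 58.3 and 6.63 in 8542 (mean log2 change -2.58 ± 0.79, adjusted p = 0.0117). The treated value of 8542 was only slightly above background. Kif18b, which limits the length of astral microtubules, gave 172 and 79.9 units in 8534 and 243 and 60.7 in 8542 (mean log2 change -1.55 ± 0.64, adjusted p = 0.00915). It had the smallest change of the 9 called, 2.15-fold and 4.01-fold, still without overlap between treated and untreated arrays. Kif2c, the microtubule depolymerase that corrects faulty kinetochore attachments, was the tested mitotic kinesin that was not called. Its signals were 163 and 104 units in 8534 and 154 and 122 in 8542 (mean log2 change -0.49 ± 0.22, adjusted p = 0.162). They fell in both lines, with an unadjusted limma p of 0.0297. Its relative Kif2b was not tested, with 6.27 and 5.52 units in 8534 and 15.9 and 2.13 in 8542.

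Of the motors of the spindle midzone and of cytokinesis, Kif20a, Kif20b and Kif23 fell, and Kif14 could not be tested. Kif23, the motor subunit of centralspindlin, gave 265 and 50.2 units in 8534 and 226 and 12.0 in 8542 (5.28-fold and 18.8-fold lower, mean log2 change -3.32 ± 1.30, adjusted p = 0.00332). Kif20a, which brings the chromosomal passenger complex to the midzone, gave 174 and 46.2 units in 8534 and 209.96 and 17.9 in 8542 (3.77-fold and 11.8-fold lower, mean log2 change -2.74 ± 1.16, adjusted p = 0.00520). For both motors the untreated arrays of the lines were close, and the treated array of 8542 was by far the lowest of the 4. Kif20b, which acts late in cytokinesis, gave 149 and 25.7 units in 8534 and 122.5 and 14.2 in 8542 (5.80-fold and 8.60-fold lower, mean log2 change -2.82 ± 0.40, adjusted p = 0.00142). It had the smallest spread between the lines among the 9 called and the lowest adjusted p of the family. Kif14, a partner of citron kinase at the midbody, was near background on all 4 arrays, at 2.69 and 0.703 units in 8534 and 1.47 and 0.838 in 8542, and no fold is given.

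**Figure D2:**
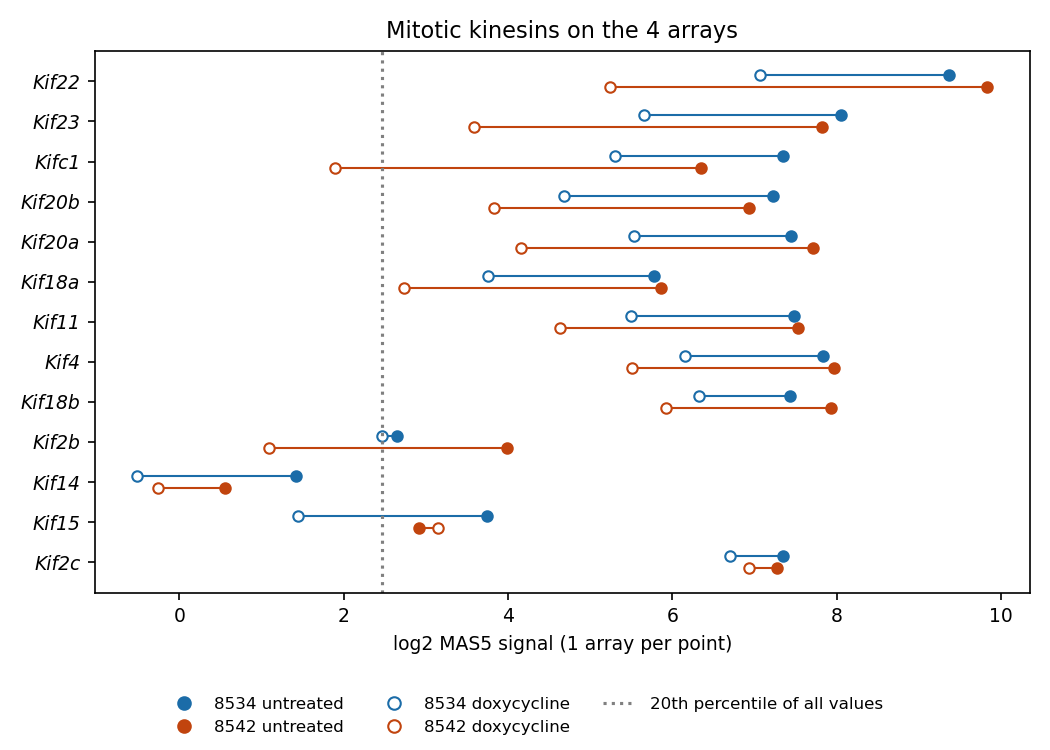
Log2 MAS5 signal of the 13 mitotic kinesins (x axis), 1 point per array, filled for untreated and open for doxycycline, with a line joining the arrays of 1 cell line and a dotted line at the 20th percentile of all values. Open points lie to the left of filled points in both lines for 12 of 13 genes, and those of 8542 reach further left for all 9 genes called lower.

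In all, both treated arrays lay below both untreated arrays for 12 of the 13 mitotic kinesins, against 21.8% of all genes. The 12 include Kif14, with all 4 signals near background, and Kif2b, with both treated signals there, whose order is not reliable. The median change of the 13 was -1.99 in 8534 and -2.90 in 8542, and over all genes it was 0.01 and -0.00. RNA of whole cultures was measured, so fewer cells near division and less kinesin RNA per cell cannot be told apart.

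Several mitotic kinesins have more than 1 probe set, and these show how much a value depends on the probe set read. Of 26 probe sets of mitotic kinesins, 24 were lower with doxycycline in both lines, and 15 of the 18 tested were called lower. Kif2c is the clearest case. A second probe set of this gene gave 321 and 66.3 units in 8534 and 271 and 25.8 in 8542 (changes of -2.27 and -3.39, adjusted p = 0.00161), and another gave 168 and 43.8, and 149 and 38.2 (-1.94 and -1.96, adjusted p = 0.00193). The last was like the representative, at 34.7 and 24.0, and 32.9 and 21.9 units, and was not called (adjusted p = 0.386). Choosing by the mean of all 4 arrays favors a probe set that fell less. Choosing by the untreated mean, an alternative added after the data had been seen, favors one that fell more. With that choice Kif2c was represented by the second probe set and 10 of 10 tested mitotic kinesins were called lower. This count is no more neutral than the one by the mean of all 4 arrays. All 3 probe sets of Kif11 and all 3 of Kif22 were called lower. Kif23 had a weak second probe set that lay between 12.2 and 14.99 units on the 4 arrays, with changes of -0.02 and -0.26, and another, not tested, that went from 63.4 to 3.08 units and from 31.8 to 0.244. Other probe sets of called genes that departed from the representative were also weak, a second of Kif18a with signals under 1 unit and 1 of Kif20b that gave 6.27 and 5.84 units in 8534 and 5.18 and 0.331 in 8542.

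**Figure D3:**
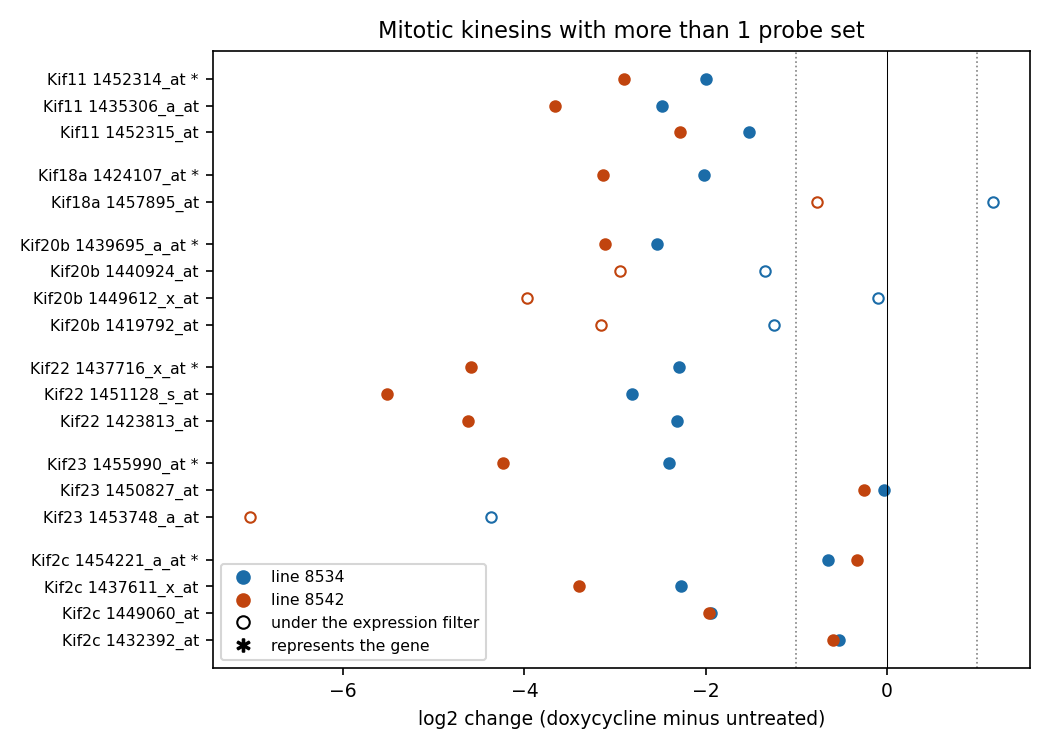
Log2 change (x axis) of each probe set of the mitotic kinesins that have more than 1, in line 8534 and line 8542, with dotted lines at a 2-fold change, open points for probe sets under the expression filter and an asterisk at the probe set that represents the gene. The probe sets of Kif11 and Kif22 lie together left of the 2-fold line, and those of Kif2c fall into a pair between -3.39 and -1.94 and a pair between -0.65 and -0.33.

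The lines differed in how far the mitotic kinesins fell. Before doxycycline the log2 differences between the lines (8542 minus 8534) of the 9 called genes ran from -0.9997 to 0.50, with a median of 0.10. The lowest untreated difference was that of Kifc1, at 163 units in 8534 and 81.4 in 8542. With doxycycline all 9 were lower in 8542, by log2 differences of -3.41 to -0.40 with a median of -1.02. The lowest of these, in Kifc1, is -2.83 when its treated signal in 8542 is raised to the background level. Folds were 2.15 to 5.80 in 8534 (median 4.04) and 4.01 to 24.1 in 8542 (median 8.79). Of all 13 mitotic kinesins, 10 had the lower change in 8542, against 50.2% of all genes. This difference between the lines could not be tested, since each line has 1 array per condition. The 2 lines also differ in Krt14, Acta2 and collagen signals, as given above, and whether that has a part in the difference was not tested.

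Transport kinesins gave no call. Of 18, 17 were tested with limma, and their adjusted p values ran from 0.0722 to 0.997. By the probe sets that represent the genes, Kif1c alone had an unadjusted p under 0.05. The mean changes of the 17 ranged from -0.41 to 0.93, and 14 of them were smaller than 0.5 in either direction. The median change was 0.19 in 8534 and 0.07 in 8542. Both treated arrays lay above both untreated arrays for 9 of 18, against 21.1% of all genes, and below for 1. Of 60 probe sets of these genes 51 were tested and 0 were called. A second, weaker probe set of Kif17, named after its values were seen, was lower in both lines (changes of -0.89 and -1.01). Its limma p was 0.0292 unadjusted and 0.160 adjusted, and the representative of Kif17 changed by -0.17 and -0.09.

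Kif5b, the conventional kinesin-1 heavy chain found in most cell types, gave 522 and 601 units in 8534 and 432 and 551 in 8542 (mean log2 change 0.28 ± 0.10, adjusted p = 0.255). Both treated arrays were above both untreated arrays by a small margin, and none of its 6 probe sets was called. Kif1c, a kinesin-3 that carries vesicles and integrins, gave 195 and 254 units in 8534 and 181 and 328 in 8542 (mean log2 change 0.62 ± 0.34, adjusted p = 0.0722). This was the lowest adjusted p among transport kinesins, 1.30-fold and 1.82-fold higher without overlap of the groups, but it did not pass the threshold. The next strongest of the 4 probe sets of Kif1c was lower in 8534 and higher in 8542 (changes of -0.30 and 0.49). The remaining ones were higher in both lines. With the mean of all its probe sets the adjusted p of Kif1c was 0.258.

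Kif1b, which moves mitochondria and synaptic vesicle precursors, gave 251 and 234 units in 8534 and 286 and 256 in 8542 (mean log2 change -0.13 ± 0.04, adjusted p = 0.668). Kif3c, a subunit of a kinesin-2 motor, gave 247 and 236, and 231 and 245 (0.01 ± 0.11, adjusted p = 0.979). Kifc3, a minus-end motor of epithelial junctions and apical transport, gave 265 and 356, and 275 and 276 (0.22 ± 0.30, adjusted p = 0.494). Treated and untreated arrays overlapped for Kif1b and Kif3c, and for Kifc3 they were separated by less than 2 units, with only the treated array of 8534 standing higher.

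Among the probe sets that represent transport kinesins, larger values came from 1 line only and from weak probe sets, which are named here after their values were seen. Kif1a, a neuronal carrier of synaptic vesicle precursors, was at 29.6 and 31.7 units in 8534 and at 6.59 and 22.5 in 8542 (adjusted p = 0.360). Kif21a, a plus-end motor that pauses microtubule growth, was at 20.3 and 42.9 units in 8534 and at 34.2 and 34.4 in 8542 (adjusted p = 0.452). Kifc2, a minus-end motor of neurons, was at 35.7 and 17.8, and at 10.6 and 12.1 (adjusted p = 0.718). Each passed a 2-fold change in 1 line and stayed well under it in the other.

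The 9 other kinesins act in cilia, centrioles, signaling or microtubule turnover, and none of the 8 tested was called, with adjusted p values of 0.122 to 0.700. Kif24, which restrains cilium assembly at the mother centriole, was at 52.1 and 41.0 units in 8534 and at 66.9 and 24.4 in 8542 (mean log2 change -0.90 ± 0.79, adjusted p = 0.163). Kif26b, a kinesin of WNT5A-ROR signaling and cell adhesion, was at 561 and 480.0 units in 8534 and at 569 and 348 in 8542 (-0.47 ± 0.34, adjusted p = 0.122). Both had an unadjusted p under 0.05 and treated values below both untreated ones, with the lower treated value in 8542. Both treated arrays lay below both untreated arrays for 4 of the 9 others, against 21.8% of all genes. A weaker probe set of Kif24 was higher in both lines (changes of 0.22 and 0.42), and another was lower in both. With the mean of all probe sets only Kif26b kept an unadjusted limma p under 0.05. Kif2a, a depolymerase related to Kif2c that is also made in cells that do not divide, such as neurons, was at 171 and 137 units in 8534 and at 87.8 and 61.1 in 8542 (-0.42 ± 0.14, adjusted p = 0.240). The lines differed more than the conditions did. Kif7, the ciliary regulator of Hedgehog signaling, was at 37.3 and 54.1, and at 41.0 and 48.4 units (0.39 ± 0.21, adjusted p = 0.454). Kif9, a motor of motile cilia, was at 23.1 and 38.2, and at 49.4 and 43.7 (0.28 ± 0.64, adjusted p = 0.700). The highest mean change of the family, 1.44 in Kif27, came from a weak probe set (10.9 and 16.9 units in 8534, 2.37 and 11.1 in 8542, adjusted p = 0.385), and this gene is named after its value was seen.

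Set against each other, the median change of mitotic kinesins was lower than that of transport kinesins by a log2 difference of -2.18 in 8534 and -2.97 in 8542. The lists were chosen with results of these data known, so the difference is given as a description, and its direction was the same in both lines.

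The start regions of the genes were then read for sequence motifs. Members were chosen by symbol and not by sequence. The classes and the motifs, however, were chosen with earlier results of these data known, so the counts below are a description and no test. RefSeq promoter windows (GRCm38.p6), 250 bases before to 50 after each annotated start, were matched for 32 of 40 kinesins, 12 mitotic, 11 transport and 9 other. Kif5a, Kif5b, Kif13b, Kif20a, Kif21b, Kif28, Kifc2 and Kifc3 had no entry. The letters TTTGAA or TTCGAA are those of the cell cycle genes homology region (CHR), an element at which MuvB-containing complexes bind and which is known to keep late cell cycle genes low in resting cells. It often stands downstream of CCAAT boxes, which NF-Y binds. Both strands were searched. The stretches below run 5′ to 3′ from 60 bases before the start to the 25th transcribed base and are shown because 7 of these 8 called mitotic kinesins have a CHR match in them. Capitals mark CHR letters (TTTGAA, or TTCAAA when read on the other strand), CCAAT letters (CCAAT or ATTGG) and, in Kif18a, letters of E2F type.
Kif11 (chr19:37376322-37376406, plus strand): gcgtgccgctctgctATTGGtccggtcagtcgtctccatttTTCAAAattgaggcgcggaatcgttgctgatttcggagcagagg
Kif22 (chr7:127042396-127042480, minus strand): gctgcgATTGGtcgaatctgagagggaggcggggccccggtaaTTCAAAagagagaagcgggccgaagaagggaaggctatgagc
Kif4 (chrX:100626005-100626089, plus strand): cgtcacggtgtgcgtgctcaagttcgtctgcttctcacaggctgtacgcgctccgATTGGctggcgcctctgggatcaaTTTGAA
Kif18b (chr11:102925100-102925184, minus strand): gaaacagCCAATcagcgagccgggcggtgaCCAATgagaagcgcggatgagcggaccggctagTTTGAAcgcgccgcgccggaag
Kif23 (chr9:61946775-61946859, minus strand): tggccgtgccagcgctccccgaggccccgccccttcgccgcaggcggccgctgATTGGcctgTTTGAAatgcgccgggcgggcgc
Kif20b (chr19:34922298-34922382, plus strand): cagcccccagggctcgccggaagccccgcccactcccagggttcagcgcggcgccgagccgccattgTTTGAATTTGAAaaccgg
Kifc1 (chr17:33890609-33890693, minus strand): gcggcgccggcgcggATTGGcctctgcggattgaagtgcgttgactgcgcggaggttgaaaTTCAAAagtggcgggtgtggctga
Kif18a (chr2:109280678-109280762, plus strand): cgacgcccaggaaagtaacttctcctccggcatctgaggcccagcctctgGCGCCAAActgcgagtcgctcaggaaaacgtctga

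The transport kinesin with the lowest adjusted p, Kif1c, is shown for comparison over the same stretch, in which there was no match and hence no capitals.
Kif1c (chr11:70700488-70700572, plus strand): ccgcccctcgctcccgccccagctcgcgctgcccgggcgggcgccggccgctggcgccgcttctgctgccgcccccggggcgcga

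A gene with several windows was counted if any of them had a match. In the 300-base window CHR letters were found in 10 of 12 mitotic kinesins, 1 of 11 transport kinesins (Kif1a) and 3 of 9 others, and in 21.7% of the 27025 genes with a promoter window. CHR and CCAAT letters together were found in 7 of 12, 0 of 11 and 3 of 9, and in 8.61% of all. Within 30 bases of the start, a distance chosen after the positions had been seen, 8 of 12 mitotic kinesins had CHR letters, 0 of 11 transport kinesins and 2 of 9 others, against 4.02% of all these genes. The 2 others were Kif24 and Kif26b, neither of which was called. The matches began 19 bases before the start in Kif11 and Kif15, 17 before it in Kif22, and 1 to 19 bases after the first transcribed base in Kif4, Kif18b, Kif20b, Kif23 and Kifc1. Kif20b has a pair of them end to end and no CCAAT box. Kif18a, the called gene without CHR letters, has an E2F-type match instead (GCGCCAAA, which reads TTTGGCGC on the other strand). Kif2c has CHR letters far from its start, and Kif2b has none.

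CCAAT letters were in 8 of 12 mitotic, 3 of 11 transport and 4 of 9 other kinesins and in 41.1% of all genes with a promoter window. E2F-type letters (TTTCGCGC, TTTGGCGC, TTTCCCGC or GGCGGGAA, the last pair of which can overlap on opposite strands) were in 2 of 12, 0 of 11 and 1 of 9, and in 4% of all. TGGGAA, the core letters bound by RBPJ, the DNA-binding partner of ICN1, were in 4 of 12 mitotic, 4 of 11 transport and 4 of 9 other kinesins and in 28.3% of all these genes. The E-box CACGTG was in 0 of 12, 1 of 11 and 0 of 9, and in 8.09% of all. A match of letters is not a bound site, and binding was not measured here.

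**Figure D4:**
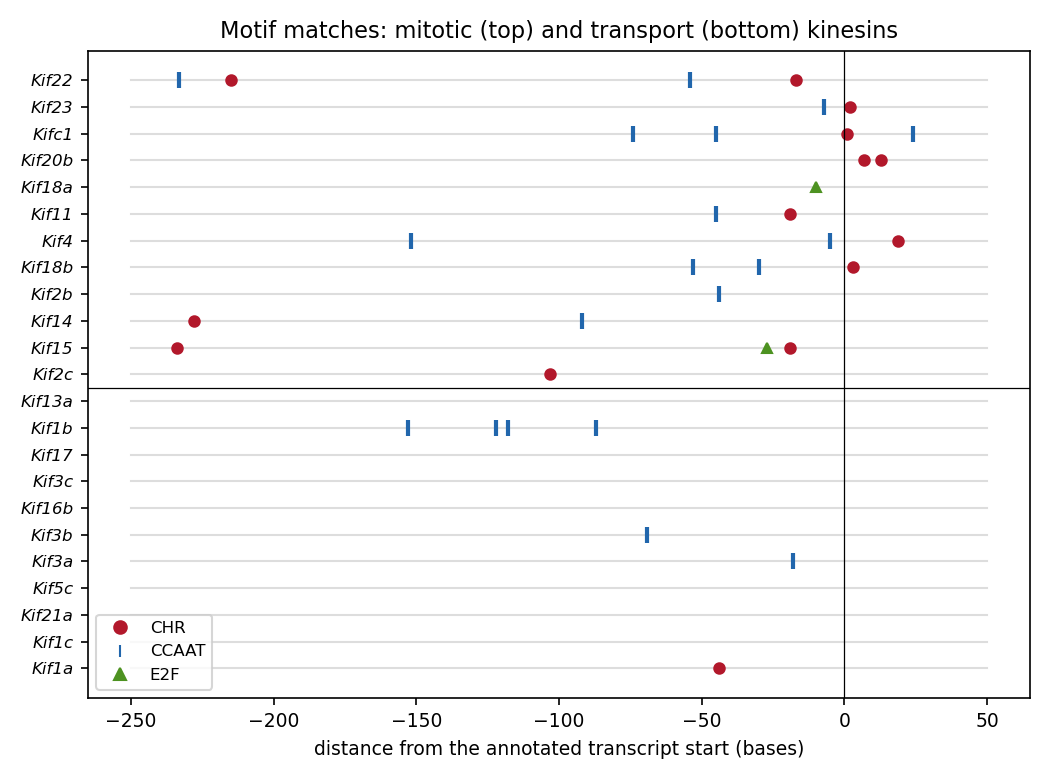
Position of CHR, CCAAT and E2F-type letters on either strand relative to the annotated start (x axis, bases, first transcribed base at 0) in the promoter windows of 12 mitotic kinesins (top) and 11 transport kinesins (bottom). CHR matches lie within 30 bases of the start in 8 mitotic kinesins and in 0 transport kinesins.

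RNA of most proteins that mitotic kinesins work with fell as well. Of 15 measured partners and regulators 14 were called lower and 0 higher, against 6.95% and 4.76% of all genes tested. Their median changes were -2.29 in 8534 and -3.68 in 8542. This list too was chosen with results of these data known. Cenpe, the kinesin-7 of the kinetochore, gave 227 and 45.1 units in 8534 and 214 and 24.9 in 8542 (mean log2 change -2.72 ± 0.55, adjusted p = 0.00123), close to Kif11 in its folds of 5.04 and 8.61. The largest mean changes were those of Birc5 (-3.85 ± 1.497), a chromosomal passenger subunit, Cdk1 (-3.23 ± 0.93), the mitotic kinase, Incenp (-3.22 ± 0.72), the passenger scaffold, and Hmmr (-3.15 ± 1.10), a spindle pole protein that binds Tpx2. Tpx2, which loads Kif11 onto the spindle, was the exception, at 111 and 149 units in 8534 and 131 and 146 in 8542 by its representative probe set (adjusted p = 0.399). A pair of its other probe sets was called lower, with changes of -1.45 and -3.54 in the first and -2.13 and -4.03 in the second. With the probe set of highest untreated mean, a choice that favors those that fell more, 15 of 15 partners were called lower.

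Markers of cycling cells moved with these motors. All 5 were called lower, against 6.95% of all genes tested. The summed signal of the same 5 probe sets, of which Pcna gave the largest part, was 6893 to 7335 units in untreated cells and 867 to 1490 with doxycycline. Mki67 went from 762 to 76.9 units in 8534 and from 585 to 23.3 in 8542, and Top2a, the topoisomerase that untangles sister chromatids, from 1305 to 211 and from 1606 to 76.0. Like the 9 called kinesins, all 5 had the lower change in 8542. Whether the share of cycling cells has a part in the change of the kinesins was not tested.

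Calls among the partners of transport kinesins went in both directions, beside the 6.95% of all genes tested that were called lower and the 4.76% called higher. Of 12 kinesin light chains and cargo adaptors 1 was called lower and 2 higher, with medians of -0.04 and 0.26. The light chains Klc3 and Klc4, which link kinesin-1 to its cargo, rose by 0.66 ± 0.34 (adjusted p = 0.0451) and 0.70 ± 0.21 (adjusted p = 0.0476), and the mitochondrial adaptor Trak1 fell by 0.64 on the log2 scale (adjusted p = 0.0325). These values are close to the threshold. Of 14 tested dynein and dynactin genes 0 were called by limma, although 1 was lower and 5 were higher at an unadjusted p under 0.05, with a lowest adjusted p of 0.0869 and medians of 0.19 and 0.20. Among 13 tested tubulins, Tubb4b (-0.87 ± 0.10, adjusted p = 0.00390) and Tubg1, the gamma-tubulin that nucleates microtubules (-1.11 ± 0.35, adjusted p = 0.00945), were called lower. Tubb6 (1.06 ± 0.05, adjusted p = 0.0436) and Tuba4a (0.55 ± 0.09, adjusted p = 0.0312) were called higher. Without the expression filter limma gave Tubb6 and Tuba4a adjusted p values of 0.0830 and 0.0535, and Tubb4b and Tubg1 0.0120 and 0.0202. Tubb6 was weak in 8542, at 9.55 and 19.4 units. The medians of the tubulins were 0.11 and -0.26.

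**Figure D5:**
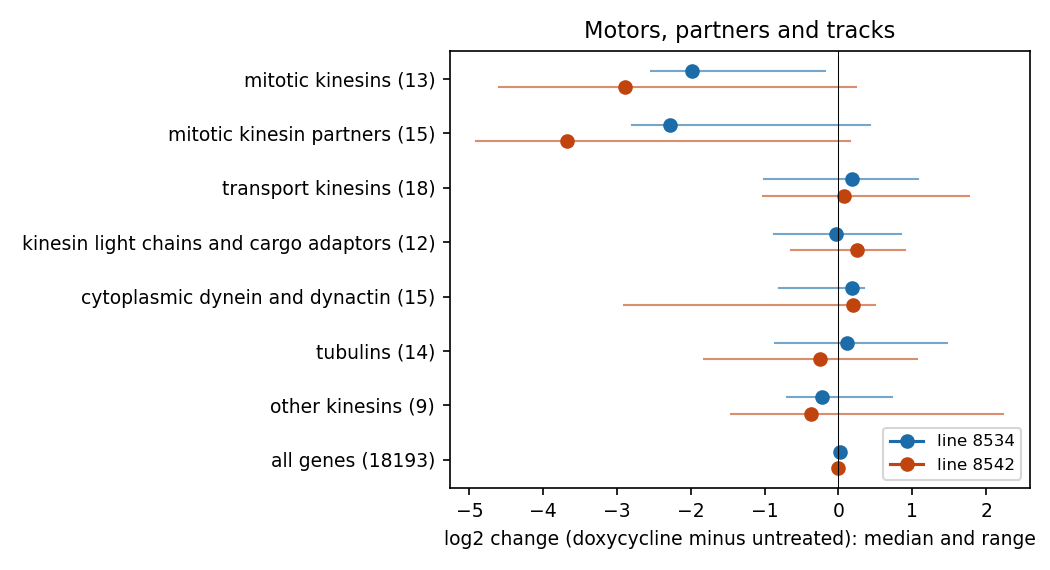
Median log2 change (points) and range over genes (lines) of kinesin classes and partner lists in line 8534 and line 8542, with the number of genes measured in parentheses, and the median only for all genes. Mitotic kinesins and their partners have medians of -1.99 to -3.68, and the medians of the other lists lie between -0.37 and 0.26.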

How the data were processed

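Per the labels and the methods, RNA of 2 mammary tumor cell lines, untreated or given doxycycline, was hybridized to Affymetrix arrays, 1 per line and condition, and the deposited values are the authors' MAS5 signals on a log2 scale. The base is not stated and was inferred, because 2 gives trimmed means of 97.3 to 101.3 units with 2% cut from each tail. The methods name the 430A 2.0 array, whereas the table covers 45101 probe sets. Of these, 64 controls were left out, and only the 34945 with 1 gene symbol were named. Whether the arrays came from separate cultures is not given in the sources used here, so that the spread may be partly technical, and the number of arrays limits the precision.

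The deposited values were used without further scaling. limma 3.58.1 (R 4.3.3) was fitted with terms for line and treatment, eBayes with an intensity trend, and Benjamini-Hochberg adjustment over 33778 probe sets that reached the 25th percentile by their mean log2 value (15070 genes by 1 probe set). It left 1 residual degree of freedom, beside 6.18 prior ones. Line is a block because both arrays of a pair are of the same cell line, and their deviations from the condition means correlated (r = 0.36). The members, classes, partner lists and motifs were chosen with earlier results of these data known. Values on every array are given for all mitotic kinesins, for the 5 transport and 5 other kinesins with the highest mean signal, for Cenpe and for the checks Hey1, Nrarp, Mki67 and Top2a, and mean changes for up to 4 called partners per list. Any other gene was chosen after its values were seen. Alternatives were other filters, a floor, a pseudocount, quantile normalization, median centring, no line term, no trend, other choices of probe set, other classes and each line alone. A planned reading of protein features was not run.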

Additional observations from a re-analysis of the deposited data

Results flagged for a closer look

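Kif28, a kinesin-3 related motor, had changes of opposite sign in the lines, 0.83 in 8534 and -1.03 in 8542 on the log2 scale. The difference was not tested, since each line has 1 array per condition, and all 4 signals (1.06 and 1.88 units in 8534, 2.32 and 1.14 in 8542) lay under the 20th percentile of all values (5.52 units), where values have no reliable order.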

How the results depend on the processing

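With 2 lines and 1 residual degree of freedom, calls depend on what the model borrows. The counts of kinesins and of mitotic kinesins called lower (9 each) were 0 without the replicate block of line and 0 without the intensity trend. Under the other filters, floor, pseudocount, scaling and choices of probe set they were 8 to 10. Kif2c was also called with the mean of all probe sets (adjusted p = 0.0124), under which Kif18a and Kif20b fell below the filter and were not tested. The median change of mitotic kinesins ranged from -2.74 to -2.03 over the alternatives and from -2.90 to -1.99 with each line alone. The transport median, 0.19, was 0.099 by the probe set of highest untreated mean, an alternative chosen after seeing the data, and 0.099 with Kif2a counted as mitotic and Kif21a and Kif21b left out. With each line alone it was 0.070 to 0.19, and the numbers of transport kinesins over 2-fold lower and over 2-fold higher, 0 with both lines, were 1 and 1. Transport calls stayed at 0 under all alternatives run. Signals near background, as in Kif14, Kif15, Kif2b, Kif28 and treated Kifc1, bound what can be said of size.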
